A study of Homo sapiens with 8 samples.

Results

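MYCN was represented by 5 m1A positions, all those that the deposited table annotates to this gene, out of 9962 positions in 4945 genes. N1-methyladenosine (m1A) is a methyl mark on the base-pairing edge of adenosine. The study silenced TRMT6 in human neuroblastoma cells by transfecting a small interfering RNA (siTRMT6) and compared them with cells labelled only as control. Each condition had 2 m1A libraries and 2 input libraries, and the values below are read as those of the m1A libraries. Polyadenylated RNA had been fragmented and, for the m1A libraries, enriched with an antibody against m1A. The titles call the cells SK-N-BE, while the other fields call them SK-N-AS, and the labels do not tell if replicates came from separate cultures. The p-values therefore reflect the variation among 4 libraries, part or all of which may be technical. Headers of the count columns name the condition and not the kind of library, m1A or input; they were read as m1A because m1A sites are what the table lists.

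MYCN encodes N-Myc, a basic helix-loop-helix leucine zipper transcription factor of the MYC family. It binds E-box DNA as a dimer with MAX and drives genes of growth, ribosome production and cell division in embryonic neural crest and sympathoadrenal cells. Extra copies of the gene mark a high-risk class of neuroblastoma, the childhood tumour of that lineage. TRMT6 is the partner that the catalytic protein TRMT61A needs to methylate tRNAs and some tRNA-like mRNA hairpins. The question put to MYCN was where its mRNA carried m1A reads with and without siTRMT6. TRMT6 had 0 listed positions in any library, so the silencing itself could not be followed in these reads.

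Summed over the listed positions, control 1 had 8655 reads, control 2 had 46007, siTRMT6 1 had 40771 and siTRMT6 2 had 13812. The sequencing depth of the libraries is not known from these sums. Of the positions, 98.6% had reads in 1 library, and the largest deposited p-value was 0.0478, so positions with similar counts in both conditions would be missing. A 0 in the table may stand for an absence of reads or for a position that was not called there, which limits every statement below on a base without reads.

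All 5 MYCN positions lay on the plus strand of chromosome 2 (hg38), in the coding sequence of 1 transcript, ENST00000281043.3. Over the whole table, 59.1% of positions were annotated to coding sequence alone. From 5′ to 3′ they were bases 503, 1054, 1057, 1576 and 1580 of that mRNA, at 15942270, 15942821, 15942824, 15945981 and 15945985 of the chromosome. The first 3 were 551 and 3 nt apart in both the genome and the mRNA, and so shared an exon. The next lay 3157 nt after base 1057 in the genome but 519 nt after it in the mRNA, so 2638 nt of intron separated them. In RefSeq (GRCh38.p14) the gene runs from 15940550 to 15947004, and the last position was 1019 nt before its end. No position in a UTR of MYCN was listed.

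At base 1054 control 1 had 50 reads, and the other 3 libraries had 0. At base 1057 control 2 had 53 reads, and the others had 0. The control libraries therefore had nearly the same number of MYCN reads, on neighbouring bases. At base 1580 siTRMT6 1 had 48 reads, and at base 1576 siTRMT6 2 had 29. These siTRMT6 reads again lay within a few bases of each other, in the exon beyond the intron, where no control read was listed. At base 503 siTRMT6 2 had a further 30 reads and the other 3 libraries had 0. No MYCN base had reads in more than 1 library, and no stretch of neighbouring bases had reads in both conditions.

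**Figure D1:**
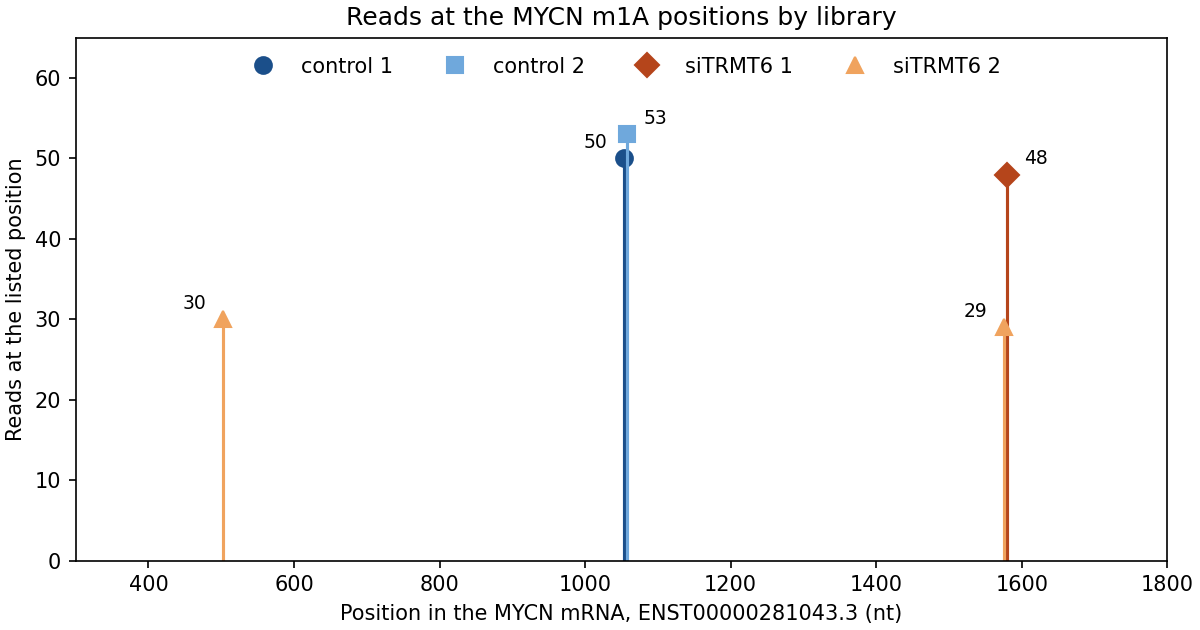
Reads at each listed MYCN position (vertical axis) against its place in the mRNA in nt (horizontal axis), by library; each line is 1 position in 1 library. Control reads (50 and 53) sit at bases 1054 and 1057, and siTRMT6 reads sit at base 503 (30) and at bases 1576 and 1580 (29 and 48).

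The authors' deposited table gave the MYCN positions at 1054 and 1057 log2 fold changes of -6.83 (adjusted p = 2.23e-11) and -6.91 (adjusted p = 5.23e-12), that is, lower in siTRMT6. The authors' deposited table gave those at 503, 1576 and 1580 values of 5.72 (adjusted p = 1.78e-06), 5.67 (adjusted p = 2.61e-06) and 6.40 (adjusted p = 8.51e-10). All 5 were thus called in that table, 3 higher and 2 lower, where 100% of the listed positions are called at this rounding. Those values rest on reads summed over the 2 libraries of a condition, with an empty sum set to 0.5, and take no account of the spread between libraries. The same 2 sums always came with the same deposited p-value and adjusted p-value, over 126 combinations of sums.

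The MYCN counts were high for single bases. Its weakest position had 29 reads and its strongest 53, where the median over all positions was 9 and 2.18% of positions had 29 or more. Among the 411 genes with at least 5 positions, MYCN had the second highest weakest position, after the nuclear RNA MALAT1 with 35, and their median was 7. Its mean of 42.0 reads per position ranked 4 among those genes, whose median was 11. The imprinted growth factor gene IGF2 had 50.3 and MALAT1 47.2. The 5 MYCN positions were many for a gene in this table, where the median was 2 and 8.31% of genes had 5 or more. The MYCN signal thus came from more listed positions than in most genes, each with many reads. Each of them had reads in only 1 library, as did 98.6% of all positions. The number of positions therefore also depends on how many libraries a gene was listed in, and is not a number of separate m1A sites. These are read numbers per base, not levels per length of transcript, and less m1A and less mRNA per cell cannot be told apart in them.

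In control 1 the MYCN position ranked 6 of 819 positions with reads. That of control 2 ranked 15 of 4269, that of siTRMT6 1 ranked 14 of 3607, and those of siTRMT6 2 ranked 17 and 19 of 1414, with ties. Each MYCN position was therefore among the strongest bases of the library it came from.

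Positions within 200 nt were then joined and their reads summed. MYCN gave 3 joined regions: base 503 alone, with 0, 0, 0 and 30 reads in control 1, control 2, siTRMT6 1 and siTRMT6 2; bases 1054 to 1057, with 50, 53, 0 and 0; and bases 1576 to 1580, with 0, 0, 48 and 29. The last 2 each had reads in both libraries of 1 condition and none in the other, so the groups do not overlap in either. With a floor of 3 reads over the 2 libraries of the empty group together and each condition scaled to its listed reads, bases 1054 to 1057 were at least 34.3-fold lower in siTRMT6 and bases 1576 to 1580 at least 25.7-fold higher. Base 503 was at least 10.01-fold higher, on 1 library. All 3 bounds hold only if a 0 stands for an absence of reads.

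When the 4 libraries were tested as replicates over all joined regions with edgeR's quasi-likelihood test, neither MYCN region passed the threshold. Bases 1054 to 1057 had an adjusted p = 0.0980 and bases 1576 to 1580 an adjusted p = 0.0931, and base 503 did not pass the filter on low counts. None of the 525 regions tested was called (0%), with 131 at an unadjusted p under 0.05. DESeq2 called 1 region, of MT-ND6, with 28 at an unadjusted p under 0.05, and gave both MYCN regions an adjusted p = 0.513. The 131 regions with an unadjusted edgeR p under 0.05 were exactly the 131 tested regions with reads in both libraries of 1 condition and none in the other, so this p repeats the selection of the table and is no separate evidence for MYCN. With a joining gap of 1000 nt, base 503 was merged with bases 1054 to 1057, and the fitted log2 of that region moved from -8.58 to -1.13 (edgeR adjusted p = 0.9999). Tested one base at a time, 0 of the 5 MYCN positions passed the filter, since each had reads in 1 library; of the 34 positions that did, edgeR called 64.7%. The 22 called were exactly the 22 tested positions with reads in both libraries of 1 condition and none in the other, whereas DESeq2 called 0 (14 at an unadjusted p under 0.05) and edgeR with the replicate number as a block called 0 (0 at an unadjusted p under 0.05).

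Among joined regions of the whole table, 158 had reads in both controls and in neither siTRMT6 library, and 314 had the opposite pattern. Together these were 472 of the 8488 regions (5.56%), or 24.3% of the 1942 regions with reads in 2 or more libraries, so the MYCN regions share this pattern with many others. MYCN had the most reads of the control regions, 103 against a median of 16 and 81 in the next region, in MIR6723. It had the second most of the siTRMT6 regions, 77 against a median of 20, after MT-ND6, a mitochondrial gene of respiratory complex I, with 317. PRRC2A followed closely with 76. In a comparison added after seeing the data, with gaps of 100 and 500 nt, MYCN ranked 2 and 1 among the control regions and 2 and 2 among the siTRMT6 regions. With 1000 nt its control region was no longer free of siTRMT6 reads, and its siTRMT6 region ranked 3.

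**Figure D2:**
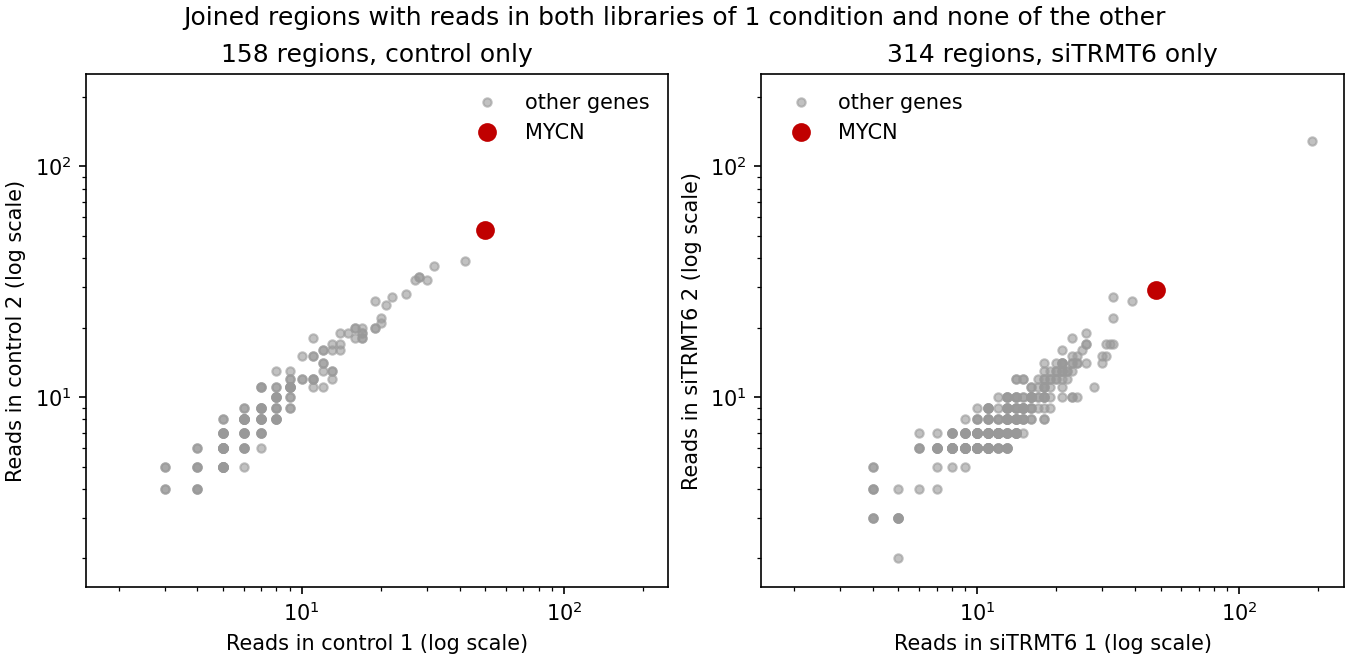
Reads in the first (horizontal axis) and second library (vertical axis) of a condition for joined regions with reads in both and none in the other condition, both axes on a log scale; each point is 1 region, MYCN in red. MYCN lies at 50 and 53 reads, above all other control regions, and at 48 and 29 reads, below only MT-ND6 among the siTRMT6 regions. PRRC2A lies beside MYCN among the latter, at 47 and 29 reads.

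The ratio between libraries of 1 condition in these regions did not follow the library totals. In MYCN, control 1 had 0.943 times the reads of control 2, although it had 0.188 times its reads at listed positions. The same held across the 158 control regions, where this ratio had a median of 0.833 and quartiles of 0.750 and 0.944. In MYCN, siTRMT6 1 had 1.66 times the reads of siTRMT6 2 at bases 1576 to 1580, against a median of 1.60 (quartiles 1.40 and 1.75) in the 314 siTRMT6 regions and 2.95 in listed reads. The MYCN regions with reads in both libraries of a condition were thus ordinary in their balance, and stood at the upper end in reads. Base 503, with 0 reads in siTRMT6 1 and 30 in siTRMT6 2, is not among the regions compared. As the ratios did not follow the library totals, scaling by listed reads or by TMM is uncertain.

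Of the 4945 genes, 155 had a region carried by both controls alone, and 301 had a region carried by both siTRMT6 libraries alone. Both kinds were found in 9 genes. Whether that is more than these counts would give by chance was not tested. They were MYCN, CHD2, FADS2, GSE1, INCENP, PROX1, RAI1, TNS1 and ZC3H18. Named for this pattern after the values were seen, INCENP, a subunit of the chromosomal passenger complex of mitosis, had 20 and 22 control reads and, in another region, 21 and 14 siTRMT6 reads. GSE1, a transcription cofactor gene, had up to 27 and 32 control reads and up to 22 and 13 siTRMT6 reads in such regions. PROX1, a homeodomain factor, had 9 and 9 against 13 and 8. Of single regions, MYCN had the one with the most reads of each kind among these 9 genes, and its regions spanned 3 and 4 nt.

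Summed over the whole gene, no difference in MYCN reads between conditions was detected. Control 1 had 50 reads, control 2 had 53, siTRMT6 1 had 48 and siTRMT6 2 had 59. The siTRMT6 libraries held the lowest and the highest value, so the groups overlap. The condition sums were 103 and 107. The edgeR log2 fold change of siTRMT6 against control was 0.30 (SE 1.07, adjusted p = 0.9998), in a fit of 975 genes of which 0% were called (126 at an unadjusted p under 0.05). DESeq2 gave 0.26 (adjusted p = 0.999) and called 1 gene, MT-ND6, with 47 at an unadjusted p under 0.05. The sign was negative when scaled by listed reads without TMM (-0.38) and without siTRMT6 2 (-0.34), so no direction can be read. The median over all genes tested was 0.24 with TMM and 0.15 when scaled by listed reads. The listed reads of the 2 conditions came from different parts of the mRNA.

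MYCN ranked high among genes in summed reads in each library. It ranked 13 of 4945 genes in control 1, 87 in control 2, 83 in siTRMT6 1 and 13 in siTRMT6 2, and 20 in all libraries together. The genes next to it were MDC1 (51 reads) and DLK1 (49) in control 1, TRIO (54) and KIF26A (52) in control 2, ZC3H11A (49) and AKT1 (47) in siTRMT6 1, and GNAS (61) and HNRNPA1 (58) in siTRMT6 2. MYCN was tied with MYL6 in control 1, with DPYSL5 and SHC1 in control 2, with PAK4 in siTRMT6 1, and with MDC1 and VGF in siTRMT6 2. Neighbours in this order thus differed by 1 or 2 reads, less than counting error. These summed reads are not scaled to transcript length. By the highest single base of each gene, MYCN ranked 6, 12, 14 and 13 in the same order of libraries. With each base counted once for every transcript listed there, MYCN, with 1 transcript, ranked 91, 608, 538 and 130. Its rank over all libraries was 13 without control 2 and 13 without siTRMT6 1.

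MYCN ranked higher in the libraries with fewer listed reads, and its share moved with them. That share of listed reads was 0.578% in control 1 (95% Wilson interval 0.438 to 0.761), 0.115% in control 2 (0.0881 to 0.151), 0.118% in siTRMT6 1 (0.0888 to 0.156) and 0.427% in siTRMT6 2 (0.331 to 0.551). Intervals cover counting error only, and reads without molecular identifiers are not independent molecules. The shares split by library total, with 1 control and 1 siTRMT6 library on each side, and not by condition. In genes with reads, the median was 8, 10, 11 and 8 reads, and MYCN was 6.25, 5.30, 4.36 and 7.38 times that median.

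**Figure D3:**
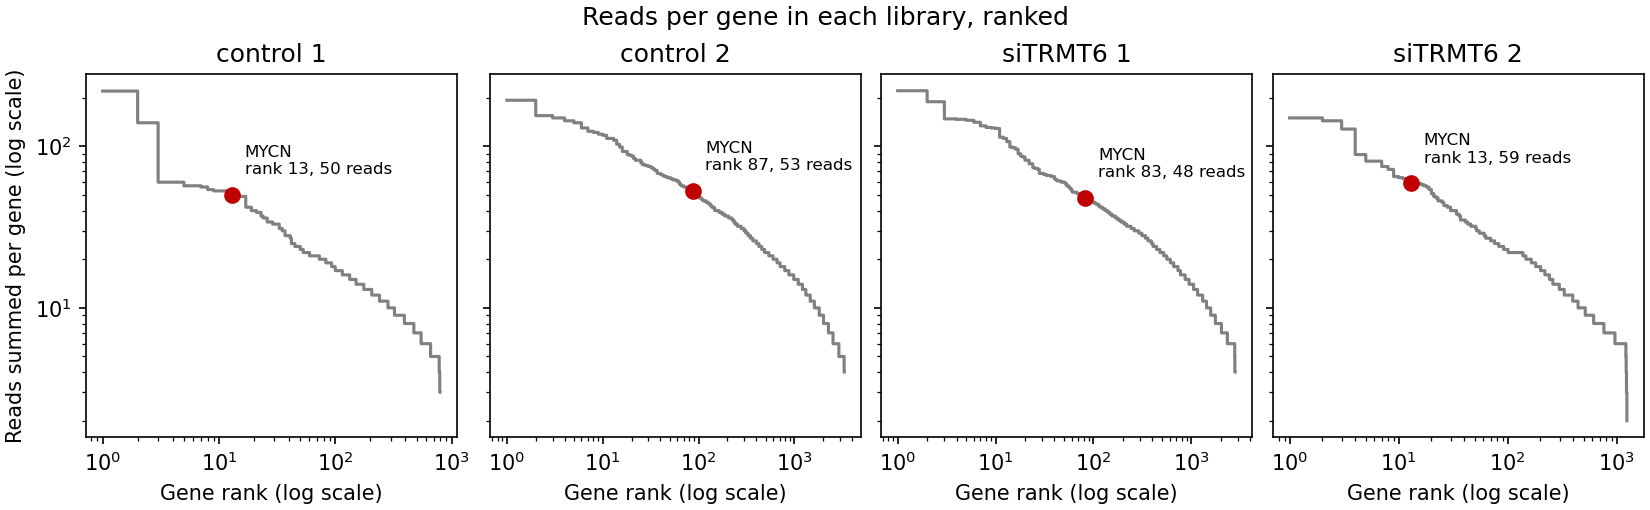
Reads summed per gene (vertical axis, log scale) against the rank of the gene (horizontal axis, log scale) in each library; the grey line is all genes with reads and the red point MYCN. MYCN had 48 to 59 reads in every library and ranked 13 in the libraries with the fewest listed reads and 83 and 87 in the others.

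Few genes had raw read numbers as even as those of MYCN. As shares of listed reads, those of MYCN ran from 0.115% in control 2 to 0.578% in control 1. MYCN was 1 of 146 genes (2.95%) with reads in all 4 libraries. Its highest library had 1.23 times the reads of its lowest, where the median of those genes was 3.42. RPS24 (1.15), NANS (1.17) and LARP1 (1.19) were more even, and of these RPS24 and NANS had at most 15 reads in a library. By the lowest of the 4 libraries, MYCN with 48 ranked 3, after MT-CO2 (144) and LARP1 (54).

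The 5 genes most like MYCN were found by the Euclidean distance between log2(reads + 1) over the 4 libraries, among 4944 genes. LARP1, an RNA-binding regulator of ribosomal protein mRNAs, was nearest, with 54, 64, 59 and 56 reads in control 1, control 2, siTRMT6 1 and siTRMT6 2 (distance 0.417). FSCN1, which bundles actin, followed with 34, 71, 39 and 40 reads (0.925). CALM3, encoding calmodulin, had 23, 57, 60 and 63 (1.14), and calmodulin is encoded by several similar genes. PHOX2A, a transcription factor that specifies noradrenergic neurons, had 57, 50, 49 and 24 (1.28), and RABL6, a small GTPase-like protein, had 22, 56, 62 and 30 (1.54). MYCN reached its reads with 5 positions, LARP1 with 12, FSCN1 with 10, CALM3 with 8, PHOX2A with 3 and RABL6 with 7. The values are a description over 4 libraries that share their preparation.

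**Figure D4:**
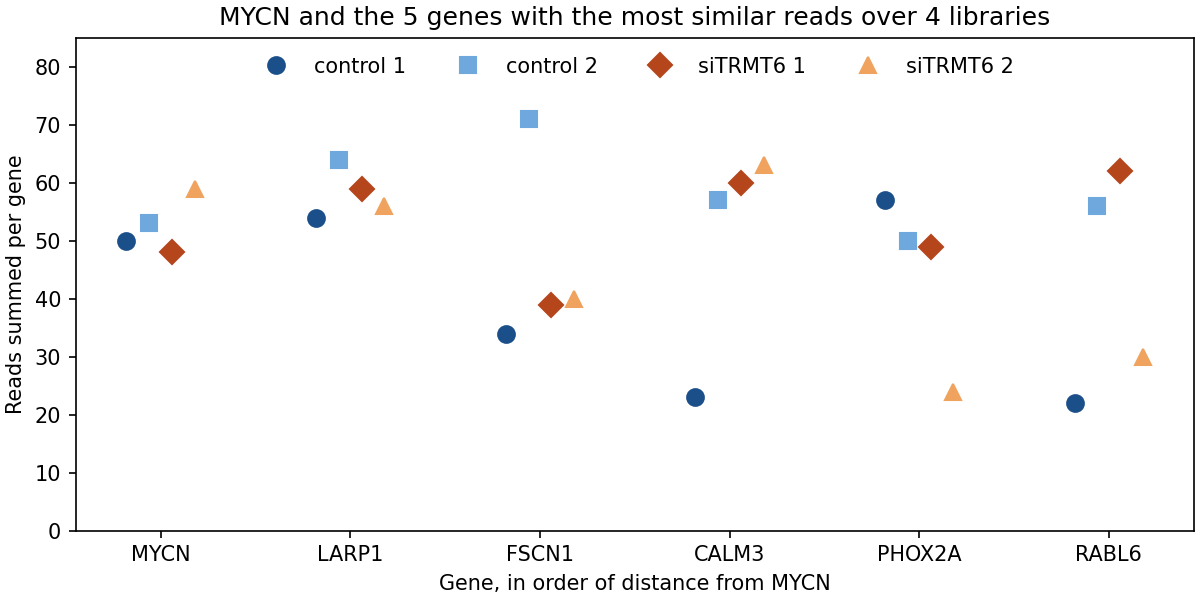
Reads summed per gene (vertical axis) for MYCN and the 5 genes nearest to it (horizontal axis, nearest first), 1 point per library. The 4 points of MYCN (48 to 59) and LARP1 (54 to 64) lie close together, while FSCN1 has 1 high library (71) and CALM3 (23), PHOX2A (24) and RABL6 (22) have at least 1 low library.

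The partners and relatives of MYCN had fewer reads. Of 12 genes of the MYC network, 7 had a listed position, with 9 positions higher and 10 lower in the authors' deposited table. MAX, the obligate partner, had 0, 20, 8 and 7 reads in control 1, control 2, siTRMT6 1 and siTRMT6 2. MXD3 and MXD4, which compete with MYC proteins for MAX, had 0, 20, 18 and 11 and 0, 19, 22 and 0. MGA, another MAX partner, had 0, 21, 7 and 0, and MLXIP of the parallel MLX branch had 0, 16, 7 and 0. None of the 7 had reads in control 1, the library with the fewest listed reads, where 794 of 4945 genes had any; MYCN had 50 there. MYC and MYCL, the paralogues, had no listed position in any library. The median listed member had 28.0 reads in all, against 14.0 over all genes and 210 in MYCN. In the edgeR fit, 3 members were tested and 0 were called in either direction, as for all genes.

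Of 20 genes for proteins that bind N-Myc or control its turnover, 15 had a position, 27 positions higher and 29 lower. EP400, a chromatin remodeller of the TIP60 complex, had 9, 46, 52 and 28 reads in the same order of libraries. TRRAP, a scaffold of that complex that MYC proteins recruit, had 0, 63, 14 and 0. PA2G4 had 16, 35, 14 and 23, the mitotic kinase gene PLK1 had 20, 31, 20 and 8, and the ubiquitin ligase gene HUWE1 had 0, 17, 13 and 9. AURKA, whose kinase shields N-Myc from degradation, had 9 reads in control 2 alone, and FBXW7, which marks N-Myc for degradation, had 0, 14, 7 and 0. EP400, PA2G4 and PLK1 were the members with reads in all 4 libraries. Of the 4 members tested, 0 were called.

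Of 45 textbook targets of MYC proteins, 30 had a position, 46 positions higher and 44 lower. The translation factor genes EIF4G1 and EIF4A1 had 33, 54, 22 and 24 and 0, 48, 20 and 12 reads. NME2, a nucleoside diphosphate kinase, had 12, 42, 50 and 11, but it is nearly identical to NME1 and their reads may not be separable. The amino acid transporter gene SLC7A5 had 0, 30, 20 and 30, and NPM1, a nucleolar chaperone with many pseudogenes, had 25, 40, 0 and 12. ODC1, the polyamine enzyme gene and a classic target, had no listed position. Of the 12 members tested, 0 were called, and the list's median log2 was 0.07 against 0.24 over all genes tested. The division of positions in these lists was close to that of the whole table, with 4937 higher and 5025 lower.

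Around MYCN on the short arm of chromosome 2, 3 of 8 genes searched had a position (under 9 symbols, 1 an older name). DDX1, an RNA helicase gene often amplified with MYCN, had 9 reads in control 2 alone. TRIB2 had 12, 40, 8 and 8 reads, and LPIN1 had 0, 17, 6 and 0. MYCNOS, the antisense transcript at the 5′ end of MYCN, had none. In RefSeq it ends at 15942433, 163 nt past the MYCN position at base 503, so that position lies in the span of both genes. Whether counting used strand is not given in the sources used here, so reads of the 2 genes there cannot be told apart. The other 4 MYCN positions lie outside MYCNOS.

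The reads were also set beside both cell line names in the labels, which they cannot decide between. Lines of the SK-N-BE name are known for amplified MYCN, whereas SK-N-AS is known to lack that amplification and to express MYC. Here MYCN ranked 20 of 4945 genes in summed reads, and MYC had no listed position. A gene without a listed position may still be expressed. Of 10 noradrenergic markers, 7 had positions, such as GATA3 with 161 reads and PHOX2A with 180 in all; of 10 mesenchymal markers, 3 had positions, among them VIM with 32 reads and TWIST1 with 37. Of the mesenchymal markers, FN1, YAP1, PRRX1, SNAI2, CD44, FOSL1 and WWTR1 had none. In shares of listed reads, the noradrenergic markers held 0.593% to 1.03% of a library and the mesenchymal markers 0.0515% to 0.289%. These are m1A reads at selected positions, gene copy number was not measured, and which line was used was not tested.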

How the data were processed

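The values came from 1 deposited table. STAR, FastQC 0.11.3 and the build hg38 are named in the submitters' processing notes; how positions were called, counted and tested is not given in the sources used here. For each site and transcript the deposited table holds, by its header, read counts in 4 columns, the authors' log2 fold change, and their raw and adjusted p-value. Recomputing the authors' log2 from the counts (summed siTRMT6 over summed control, an empty sum set to 0.5, divided by 1.14) matched every position. Sites are listed counting from 0 and are given here counting from 1.

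Each position was counted once per gene. Reads were summed per gene, and over positions of 1 gene and strand joined at gaps of at most 200 nt. The tests were edgeR 4.0.16 in R 4.3.3 (TMM, filterByExpr, quasi-likelihood test, Benjamini-Hochberg adjustment at 0.05) over all 4945 genes, 8488 regions or 9962 positions, siTRMT6 against control; DESeq2 1.42.0 was an alternative. The gene fit was also run on simulated counts, which had far less spread between libraries than these data. That run therefore does not show how well the tests perform here. TMM factors ran from 0.653 to 2.06 for genes. Input samples were not used. MYCN and the gene lists were chosen with earlier results of these data known. Named were the 5 nearest genes, those next in rank, and up to 5 members per list with reads in 2 or more libraries; AURKA, FBXW7, ODC1, DDX1 and the paralogues were added for their roles. No sequence around the MYCN positions is printed.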

Additional observations from a re-analysis of the deposited data

How the results depend on the processing

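The MYCN log2 fold change summed per gene was 0.30 and turned negative when scaled by listed reads without TMM (-0.38); leaving out 1 library gave -0.34 to 0.73, with -0.34 without siTRMT6 2. No alternative called it (adjusted p 0.983 to 1). Both MYCN regions kept their sign and missed the threshold under the 12 alternatives (adjusted p 0.0997 to 1 for bases 1054 to 1057 and 0.0964 to 1 for bases 1576 to 1580). DESeq2 called 1 gene and 1 region where edgeR called 0. Of positions, edgeR called 22, against 14 with listed reads without TMM, 0 with DESeq2, 0 without the filter, 0 with the replicate number as a block, and 0 to 0 when 1 library was left out; the cause was not tested. With equal library sizes it called 29 of 37, of which 10 were higher and 19 lower in siTRMT6, against 13 higher and 9 lower with TMM and 13 higher and 1 lower with listed reads without TMM. With the replicate block, 0 genes and 0 regions were called, and MYCN had a log2 of 0.20. Libraries with the same number share only that number (correlation of their deviations -0.031). By the highest base per gene, MYCN ranked 6, 12 and 14 in control 1, control 2 and siTRMT6 1. Summed over transcript rows, which counts a base once per isoform, it ranked 91, 608, 538 and 130 in control 1, control 2, siTRMT6 1 and siTRMT6 2, since it has 1 listed transcript. Its rank over all libraries was 20, and 13 to 29 with 1 library left out, 13 without control 2 or without siTRMT6 1. Low counts limit every comparison.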
